A study of Mus musculus with 2 samples.

Results

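The macrophage lineage transcription factors examined here were Spi1, Cebpa, Cebpb, Maf, Mitf, Tfec, Tfeb, Tfe3 and Runx1, taken by symbol as 9 of the 55536 genes in the tables. Polyadenylated RNA was sequenced from bone marrow macrophages of the inbred mouse strain C57BL/6J after a 30 min exposure to a ligand at 100 ng/ml. The labels disagree on the ligand, which is lipid A in the free text and lipoprotein A, classed as a protein, in the source and treatment fields. The 2 libraries were biological replicates 1 and 2 of this single group, registered as different biosamples of 1 donor record, and sex and age were not collected. No allele other than the strain is named, and no untreated group was analysed here, so a level below is a level after treatment and cannot be read as induced or repressed. Nothing in the labels names separate animals, and the spread between these 2 libraries may be technical in part.

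PU.1, the protein of Spi1, is an ETS factor that myeloid cells need for their development, and it acts with C/EBP and RUNX factors on myeloid promoters and enhancers. c-Maf works later, in mature macrophages. Mitf, Tfec, Tfeb and Tfe3 form the MiT/TFE family of basic helix-loop-helix leucine zipper factors, which bind E-box sites as pairs and are best known for the control of lysosome and autophagy genes and for roles in pigment cells and osteoclasts. Runx1 sets up the blood lineages and binds DNA with its partner Cbfb.

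Replicate 1 held 37784941 expected counts over genes and replicate 2 held 51904470, so that a count of 0 allows up to 0.0794 and 0.0578 CPM (counts scaled to the same library total). Levels are given as TPM, a length-scaled relative abundance, with replicate 1 before replicate 2. All 8 macrophage markers reached 1 TPM in both libraries and summed to 22021 and 28382 TPM. Lyz2 had 15907 and 22127 TPM and Cd68 had 3702 and 3370 TPM. The libraries also differed in markers of other cells. The 6 neutrophil markers summed to 309 and 55.6 TPM, nearly all from S100a9 with 183 and 37.1 TPM and S100a8 with 124 and 18.1 TPM. The others were low, with 46 and 3 counts for Mpo, 20 and 1 for Elane and 31 and 28 for Cxcr2, while Ly6g had 0.06 and 0 TPM. The 4 megakaryocyte markers summed to 972 and 253 TPM, nearly all from Pf4 with 962 and 250 TPM. Ppbp had 9.05 and 1.96 TPM, while Itga2b had 0.95 and 0.48 TPM and Gp9 had 0.19 and 0.05 TPM. In the lists of the other 10 cell types, the markers at 1 TPM or more in both libraries were Cd4 (111 and 82.2 TPM), Cd79b (3.88 and 1.43), Itgax (7.11 and 3.88), Kdr (5.12 and 11.8), Acp5 (7.35 and 5.49) and Ctsk (5.17 and 6.09), while Cd3d and the globin genes were at or near 0. A ribosomal RNA gene, CT010467.1, took 10.9% and 5.05% of the counts. The part of these differences in the results below was not tested, and in bulk RNA fewer cells of a type and less RNA per cell cannot be told apart.

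All 9 factors reached 10 TPM in both libraries, on 927 to 19139.5 expected counts each in replicate 1 and 1647 to 33271 in replicate 2. Their median was 29.9 and 53.4 TPM, against 15.3 and 17.1 TPM over the 10658 genes at 1 TPM or more in both libraries. The order of the mean levels was Spi1, Maf, Tfe3, Cebpa, Cebpb, Tfec, Tfeb, Runx1 and Mitf. Over all annotated transcripts, the ranges over the 2 libraries did not overlap between Spi1 and Maf, between Maf and Tfe3, or between Cebpa and Cebpb. They overlapped between all other neighbours, and the order of Tfe3 and Cebpa, and of Tfeb and Runx1, was not the same in both libraries. Over complete transcripts only, Spi1 and Maf overlapped, and Tfe3 (64.2 and 63.5 TPM) had a lower mean than Cebpa. The lowest means there were 22.2 TPM for Mitf, 20.95 TPM for Runx1 and 17.3 TPM for Tfeb, in the reverse order. In the second quantification, over all transcripts, Runx1 (25.7 TPM) had a higher mean than Tfeb (21.2 TPM).

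**Figure D1:**
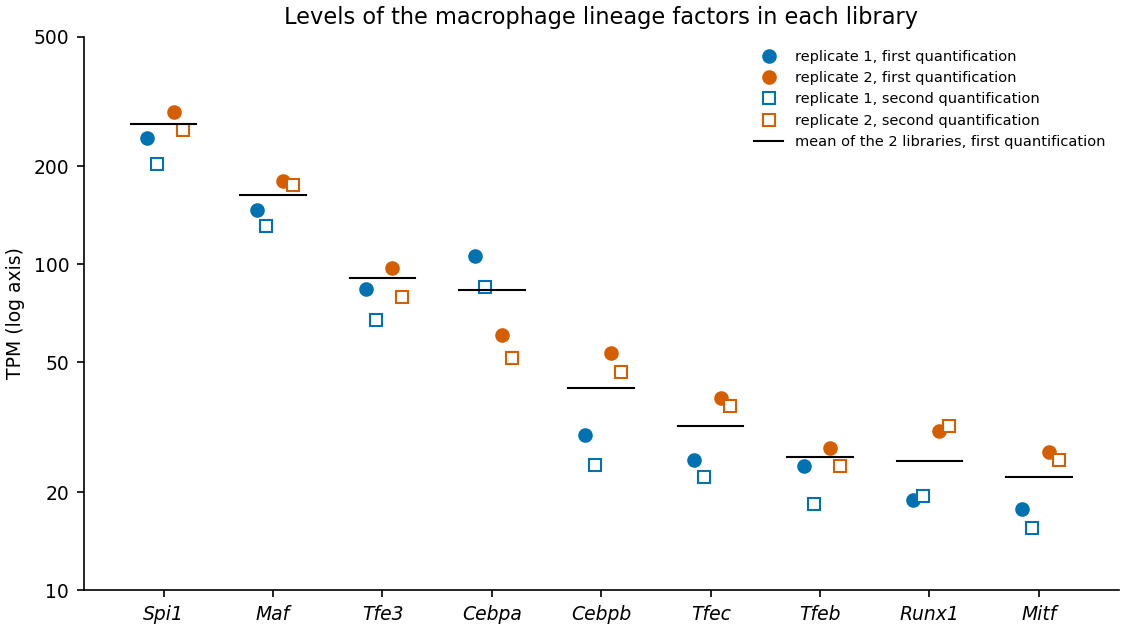
Level of each factor in TPM on a log axis, for replicate 1 (blue) and replicate 2 (orange), in the first (filled circles) and second (open squares) deposited quantification, with the mean of the 2 libraries as a black line. Over all transcripts Spi1 was highest at 244 and 294 TPM, and Cebpa is the factor whose replicate 1 value lies above that of replicate 2.

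Spi1 RNA was the most abundant of the factors over all annotated transcripts, but not over complete ones. Spi1 (ENSMUSG00000002111.8, mm10 chr2:91082390-91115756, plus strand) had 244 and 294 TPM, a mean of 269 ± 35.6 TPM (SD, n = 2), on 6113 and 10431 expected counts. It lay above 95.1% and 95.6% of the detected genes. Without transcripts marked as incomplete Spi1 had 142 and 185 TPM, which overlapped the 147 and 181 TPM of Maf, and in the second quantification, likewise without them, it had 113 and 162 TPM, against 131 and 175 TPM for Maf. Its relatives were far lower, as Spic, a factor of red-pulp macrophages, had 13.9 and 8.43 TPM and Spib, known from B cells and plasmacytoid dendritic cells, had 0.25 and 0.28 TPM. Spi1 held 94.5% and 97.1% of the TPM of this family in both libraries.

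Reads assigned to Spi1 came from annotated starts that lie 13706 bases apart. Spi1-201, the full-length transcript of 272 codons, began at the downstream start and held 85.9% of the gene's expected counts in replicate 1 (95% Wilson interval 85.0% to 86.7%) and 87.1% in replicate 2 (86.5% to 87.7%). The upstream start, with the 544-base Spi1-204, marked as incomplete in the annotation, and the non-coding Spi1-202, held 13.0% (12.2% to 13.9%) and 11.9% (11.3% to 12.5%) of the counts. The same upstream start held 43.8% and 42.5% of the TPM, because a short transcript has a small effective length. In the second quantification its share of TPM was 47.3% and 46.5%. There Spi1-201 held 82.7% and 83.8% of the estimated counts, below the intervals given for it above. The coding starts are shown because the upstream exon replaces the first coding exon of the main transcript. Capitals mark the coding bases found only in that transcript, which span chr2:91096949-91096993 in the main and chr2:91082504-91082523 in the upstream transcript, on the plus strand of mm10 in M21 transcripts, and lower case marks the first shared coding bases.
Spi1 main start: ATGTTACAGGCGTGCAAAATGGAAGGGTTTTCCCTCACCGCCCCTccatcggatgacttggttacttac
Spi1 upstream start: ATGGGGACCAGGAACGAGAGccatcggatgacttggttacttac
The 45 bases of the main start are whole codons, while the 20 bases of the upstream start leave 2 bases over. The shared bases are therefore read in another frame from the upstream start as annotated.

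Runx1 was among the lower factors, with a clear preference for its distal start. Runx1 (ENSMUSG00000022952.17, chr16:92601466-92826149, minus strand) had 18.9 and 30.9 TPM, a mean of 24.9 ± 8.48 TPM (SD, n = 2), on 2272 and 4629 expected counts. Its partner Cbfb, which raises the DNA binding of RUNX proteins, had 46.2 and 51.7 TPM, above Runx1 in both libraries. Runx2, the factor of bone formation, had 1.01 and 1.91 TPM, and Runx3, known from T cells and NK cells, had 0.48 and 0.68 TPM. Of the 8 RUNX corepressors and coactivators, 6 reached 1 TPM in both. The acetyltransferase Ep300 had 40.2 and 41.3 TPM and the Groucho corepressors Tle3 and Tle4 had 19.4 and 30.4 TPM, and 16.8 and 17.5 TPM. Runx1t1, the fusion partner of RUNX1 in human leukaemia, had 0 counts in both.

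Runx1 has a distal and a proximal promoter, here 128821 bases apart, and blood cells are known to make a protein with a different amino end from each. The distal start, with Runx1-201 of 465 codons, held 87.3% (85.8% to 88.6%) and 87.6% (86.6% to 88.5%) of the expected counts. The proximal start, with Runx1-202 of 387 codons, held 12.4% (11.1% to 13.8%) and 11.9% (11.0% to 12.8%). In the second quantification the distal start held 81.3% and 83.5% of the estimated counts and the proximal start 17.7% and 15.4%. The distal start was thus the larger in both libraries by both quantifications. A 336-base fragment, Runx1-204, marked as incomplete and starting 371 bases inside the distal start, took 9.88% and 19.7% of the TPM on only 4.38 and 17.4 expected counts. The coding starts below differ in their capitals, which lie at chr16:92825589-92825646 for the distal and chr16:92695738-92695753 for the proximal start on the minus strand, and then run into the same coding sequence in lower case.
Runx1 distal start: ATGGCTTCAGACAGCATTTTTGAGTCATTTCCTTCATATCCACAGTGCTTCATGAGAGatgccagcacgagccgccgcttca
Runx1 proximal start: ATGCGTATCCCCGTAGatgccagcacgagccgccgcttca
Both leave 1 base over after whole codons, so the shared bases are read in the same frame from either start.

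A coding exon of 192 bases at chr16:92644154-92644345 is spliced in or out of Runx1 transcripts. Transcripts with it, mainly Runx1-201, held 87.9% (86.4% to 89.1%) and 88.3% (87.3% to 89.2%) of the counts of those that span it. Since Runx1-202 carries both the proximal start and the skipped exon in the annotation, these shares are not independent of the shares by start. The exon is printed in full because it is the other coding difference between the 2 transcripts.
Runx1 skipped exon: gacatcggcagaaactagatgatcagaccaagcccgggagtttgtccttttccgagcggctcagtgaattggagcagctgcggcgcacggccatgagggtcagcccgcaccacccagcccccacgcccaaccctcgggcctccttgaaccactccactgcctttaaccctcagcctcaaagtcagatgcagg

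The sequences upstream of the Runx1 starts are shown beside these shares, from the RefSeq promoter table (GRCm38.p6), which had a window for 7 of the 9 factors. Each was cut at the most upstream annotated start, which left chr16:92826150-92826324 for the distal and chr16:92697330-92697579 for the proximal start, both on the minus strand. Capitals mark matches on either strand to the PU.1 and ETS motif GAGGAA, the C/EBP motif TTGCNNAA, the E-box CACGTG of MiT/TFE factors, the RUNX motif TGTGGT or its variant TGCGGT, and the TATA box as TATAAA.
Runx1 distal promoter: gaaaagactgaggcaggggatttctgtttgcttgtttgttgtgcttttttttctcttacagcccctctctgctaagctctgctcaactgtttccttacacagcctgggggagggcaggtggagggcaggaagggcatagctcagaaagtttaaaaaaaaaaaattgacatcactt
Runx1 proximal promoter: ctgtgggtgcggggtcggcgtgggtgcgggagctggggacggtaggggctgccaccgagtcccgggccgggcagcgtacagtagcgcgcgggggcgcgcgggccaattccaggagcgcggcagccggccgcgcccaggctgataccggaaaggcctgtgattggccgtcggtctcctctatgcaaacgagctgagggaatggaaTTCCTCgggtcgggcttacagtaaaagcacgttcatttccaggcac
The distal window of 175 bases held none of these letters. The proximal window of 250 bases held 1 match, to GAGGAA, which 23.3% of the 32851 windows of that length also hold.

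The 2 C/EBP factors differed between the libraries in opposite directions. Cebpa (ENSMUSG00000034957.10, chr7:35119293-35121928, plus strand), which drives entry into the granulocyte and macrophage lineage, had 106 and 60.9 TPM, a mean of 83.4 ± 31.9 TPM (SD, n = 2), on 5525 and 4539 expected counts. Cebpb (ENSMUSG00000056501.3, chr2:167688915-167690418, plus strand), which acts in activated macrophages and on inflammatory genes, had 29.9 and 53.4 TPM, a mean of 41.7 ± 16.6 TPM, on 927 and 2301 counts. Cebpa was the higher in both libraries, but the ratio of Cebpa to Cebpb was 3.54 in replicate 1 and 1.14 in replicate 2. Short and long proteins of both genes are made from the same mRNA by choice of the start codon, which these counts do not resolve.

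Among the other C/EBP genes, Ddit3, a stress-induced member that pairs with other C/EBP proteins, was the most abundant with 87.8 and 128 TPM. Cebpg, a member without an activation domain, had 14.3 and 16.2 TPM. Cebpd, known as an early inflammatory member, had 1.28 and 3.13 TPM. Cebpe, the granulocyte member, had 3 counts in each library. Cebpa held 44.3% and 23.2% of the family's TPM, Cebpb 12.5% and 20.4%, and Ddit3 36.7% and 49.0%.

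Cebpb has 1 annotated transcript, of 296 codons, and Cebpa has 2, which the quantifications ranked differently. Cebpa-201, unspliced with 359 codons, held 41.0% and 49.4% of the TPM in the first quantification and 57.7% and 68.7% in the second. The rest was assigned to Cebpa-202, which lacks 475 bases inside the coding sequence, encodes 159 codons and has the lowest support level, 5, in the annotation. The split between these transcripts is therefore uncertain, while the gene's total was 106 and 60.9 TPM in the first quantification and 85.3 and 51.8 TPM in the second. Whether the libraries keep strand is not stated in the sources used here, and genes on the opposite strand overlap both. Cebpb shares 312 exonic bases with Tmem189, which had 8866 and 11704 counts, and Cebpa shares 51 with Gm45091, which had 1 and 6 counts. Without strand, reads in the shared bases cannot be told apart.

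Maf was second to Spi1 over all transcripts and level with it over complete ones, and above Maff, Mafg, Mafk, Mafa and Nrl of its family in both libraries. Maf (ENSMUSG00000055435.6, chr8:115682942-115707794, minus strand) encodes c-Maf, which controls Il10 and the complement C1q genes in macrophages. It had 147 and 181 TPM, a mean of 164 ± 24.2 TPM (SD, n = 2), on 19139.5 and 33271 expected counts. Maff, a small Maf protein without an activation domain, had 8.05 and 29.6 TPM, while the small Maf genes Mafg and Mafk had 25.8 and 21.6 TPM, and 16.9 and 19.3 TPM. Mafa, of pancreatic beta cells, had 10 and 9 counts, and Nrl, of photoreceptors, had 0 counts in both libraries.

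All 7 genes of the list of MAF targets and partners were at 1 TPM or more. The complement genes C1qb and C1qc had 2844 and 2721 TPM, and 1788 and 1986 TPM. The mannose receptor gene Mrc1 had 365 and 234 TPM. Il10, an anti-inflammatory cytokine gene named here after its value was seen, had 70.3 and 265 TPM, lower in replicate 1 where Mrc1 was higher. Cd163, a scavenger receptor gene, was the lowest of the list with 1.47 and 1.44 TPM.

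Maf-202, a single exon that reads on past the splice site and encodes 370 codons, held 72.3% and 71.8% of the TPM in the first quantification and 74.9% and 74.8% in the second. Maf-201, spliced near its 3′ end to encode 380 codons, held the rest, 27.7% and 28.2%. The share of counts of Maf-201 was 15.7% (15.2% to 16.2%) and 16.0% (15.6% to 16.4%), so the spliced form was the smaller on both measures. The coding end found only in Maf-201, at chr8:115693162-115693192 on the minus strand, is in capitals after the last shared coding bases.
Maf spliced end: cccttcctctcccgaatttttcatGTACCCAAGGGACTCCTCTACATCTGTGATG
An antisense gene, Gm15655, shares 440 exonic bases with Maf and had 298 and 951 expected counts. Its reads and those of Maf cannot be told apart in the shared bases without strand.

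All 4 MiT/TFE genes were present together, with Tfe3 the highest. Tfe3 (ENSMUSG00000000134.17, chrX:7762560-7775202, plus strand) had 84.3 and 97.3 TPM, a mean of 90.8 ± 9.15 TPM (SD, n = 2), on 4314 and 6210 expected counts. Tfec (ENSMUSG00000029553.10, chr6:16833373-16898441, minus strand), whose expression is largely limited to macrophages, had 25.1 and 38.8 TPM, a mean of 31.9 ± 9.68 TPM, on 959 and 1986 counts. Tfeb (ENSMUSG00000023990.18, chr17:47737030-47792419, plus strand), the regulator of lysosome biogenesis, had 24.1 and 27.3 TPM, a mean of 25.7 ± 2.23 TPM, on 1083 and 1647 counts. Mitf (ENSMUSG00000035158.15, chr6:97807052-98021349, plus strand), the factor of melanocytes and osteoclasts, had 17.8 and 26.6 TPM, a mean of 22.2 ± 6.20 TPM, on 1876 and 3640 counts. Tfe3 held 55.7% and 51.2% of the family's 151 and 190 TPM, Tfec 16.6% and 20.4%, Tfeb 15.9% and 14.4%, and Mitf 11.8% and 14.0%. With the second quantification Tfe3 held 54.5% and 48.1%, so that it held more than the other 3 combined in replicate 1 only. Over complete transcripts of the first quantification Tfe3 had 63.5 TPM in replicate 2, where Tfec, Mitf and Tfeb had 36.7, 26.6 and 17.8 TPM.

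**Figure D2:**
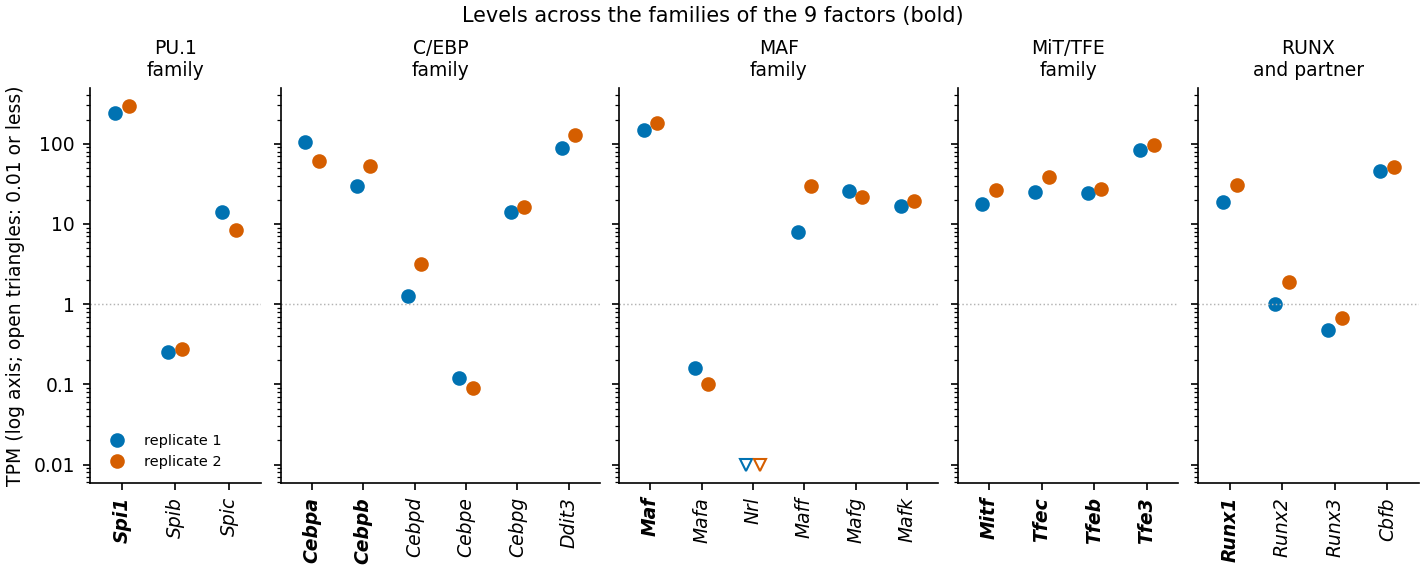
TPM on a log axis of the reported genes of the 5 families, with the 9 factors in bold, for replicate 1 (blue) and replicate 2 (orange), and a dotted line at 1 TPM. Spi1, Maf and Runx1 stood above the other genes plotted for their families apart from Cbfb, a partner of RUNX proteins. Ddit3 was above Cebpb in both libraries and above Cebpa in replicate 2.

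The 4 genes share an exon of 76 coding bases, which encodes part of the DNA-contacting basic region and the start of the helix-loop-helix, and a following exon of 148 coding bases. The first of these is printed from Mitf-202, Tfec-201, Tfeb-202 and Tfe3-204, because it lets the family members be set side by side without gaps. Capitals mark the 45 bases that are identical in all 4.
Mitf shared exon: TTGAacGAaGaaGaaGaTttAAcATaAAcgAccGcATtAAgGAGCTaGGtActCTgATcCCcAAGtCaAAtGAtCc
Tfec shared exon: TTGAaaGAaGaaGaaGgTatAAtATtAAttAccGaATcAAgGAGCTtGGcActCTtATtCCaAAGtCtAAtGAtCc
Tfeb shared exon: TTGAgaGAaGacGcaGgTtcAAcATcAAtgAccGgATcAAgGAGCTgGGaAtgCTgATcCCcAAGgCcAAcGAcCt
Tfe3 shared exon: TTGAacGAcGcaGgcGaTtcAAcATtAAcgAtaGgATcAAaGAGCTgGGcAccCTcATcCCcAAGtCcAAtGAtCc
The exons lie at chr6:98010395-98010470 (Mitf, plus strand), chr6:16840469-16840544 (Tfec, minus strand), chr17:47788909-47788984 (Tfeb, plus strand) and chrX:7770995-7771070 (Tfe3, plus strand). Identity between pairs ran from 72.4% for Tfec with Tfeb, Tfec with Tfe3 and Tfeb with Tfe3 to 80.3% for Mitf with Tfec.

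Mitf RNA came mostly from the most upstream start. Mitf-202, the long form of 526 codons that begins there, held 89.0% and 80.1% of the TPM in the first quantification and 86.4% and 76.0% in the second. All transcripts of that start together held 98.3% (97.5% to 98.7%) and 96.4% (95.7% to 97.0%) of the counts. Mitf-201, the melanocyte form of 419 codons whose start lies 184740 bases downstream, had 0 counts in both libraries in the first quantification, and 12.6 and 17.0 estimated counts in the second. It is named here after its values were seen, as the form best known from pigment cells.

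A further transcript, Mitf-208, begins at the first coding base of the melanocyte exon and has 357 codons and the weakest support level in the annotation. It held 1.73% (1.26% to 2.46%) and 3.42% (2.86% to 4.05%) of the counts, on 32.5 and 124 expected counts, and 9.04% and 16.9% of the TPM. Its length of 1074 bases, against 4881 for Mitf-202, gives each of its reads more weight in TPM. The deposited tables do not record which exons carried these reads. The coding parts of the 2 first exons are printed with the start codon in capitals, at chr6:97807184-97807287 for the upstream and chr6:97991921-97991953 for the downstream exon, both on the plus strand.
Mitf upstream start: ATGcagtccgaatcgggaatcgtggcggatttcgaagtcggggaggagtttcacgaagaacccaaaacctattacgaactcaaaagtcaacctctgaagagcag
Mitf downstream start: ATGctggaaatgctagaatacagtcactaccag
The upstream exon, with 104 coding bases, belongs to the form that held most of the counts. The downstream exon, with 33, is the one that the melanocyte form uses.

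Mitf transcripts also differ by an insert of 18 bases at chr6:98006123-98006140, from a choice of splice acceptor just before the basic region. Transcripts with the insert held 97.4% (96.6% to 98.0%) and 95.5% (94.8% to 96.1%) of the counts of the coding transcripts, and 89.0% and 80.8% of their TPM. By the second quantification they held 88.0% and 78.3% of the TPM. The form with the insert, which melanocytes make along with the form without it, was thus the larger in both libraries by counts and by TPM. The transcripts without it, Mitf-207 and Mitf-208, are annotated with 2113 and 1074 bases, against 4881 for Mitf-202. The count shares therefore depend on annotated length as well as on the insert. Mitf-208 also begins in the downstream first exon, so these shares are not independent of the shares by start. The insert is in capitals between its coding flanks, and the joined flanks are given below it.
Mitf with the insert: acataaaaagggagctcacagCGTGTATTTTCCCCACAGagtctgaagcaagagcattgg
Mitf without the insert: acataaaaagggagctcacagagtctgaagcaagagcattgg

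Upstream of the 2 Mitf starts the same motifs were searched, in chr6:97806808-97807051 and chr6:97991533-97991782 on the plus strand of GRCm38.p6, with matches in capitals.
Mitf upstream promoter: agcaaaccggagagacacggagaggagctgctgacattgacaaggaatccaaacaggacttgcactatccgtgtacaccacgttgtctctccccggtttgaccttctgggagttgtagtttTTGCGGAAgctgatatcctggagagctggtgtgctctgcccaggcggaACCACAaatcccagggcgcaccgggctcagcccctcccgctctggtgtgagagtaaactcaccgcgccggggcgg
Mitf downstream promoter: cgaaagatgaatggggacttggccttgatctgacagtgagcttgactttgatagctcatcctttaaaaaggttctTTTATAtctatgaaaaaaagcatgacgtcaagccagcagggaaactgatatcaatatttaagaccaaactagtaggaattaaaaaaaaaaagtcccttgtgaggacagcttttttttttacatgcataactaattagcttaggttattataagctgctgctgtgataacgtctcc
The upstream window of 244 bases held 1 match to TTGCNNAA, found in 9.40% of windows of that length, and 1 to TGTGGT on the other strand, found in 13.8%. The downstream window of 250 bases held 1 match to TATAAA on the other strand, found in 12.4% of windows. A match to a short motif is a description of these letters and not of binding.

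Tfec, Tfeb and Tfe3 differed in how well their transcripts could be resolved. Tfec-201, of 317 codons, held 99.6% and 93.7% of the TPM in the first quantification and 98.7% and 89.4% in the second. Tfeb-202, a complete form of 475 codons from the most upstream start, held 64.7% and 58.0% in the first quantification and 85.1% and 72.4% in the second. The quantifications disagreed on Tfeb-212, which is marked as incomplete, with 28.9% and 32.1% of the TPM in the first and 2.36% and 4.36% in the second. Tfeb-202 was the larger in both libraries by either.

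For Tfe3 no transcript led in all 4 tables. In the first quantification the leading transcript was Tfe3-205, with 32.0% of the TPM, in replicate 1 and the 408-base fragment Tfe3-214, with 34.7%, in replicate 2. In the second it was Tfe3-204, with 36.9% and 33.6%. Tfe3-214 took these TPM on 1.80% and 2.64% of the counts. By start, the group of starts 1383 bases inside the gene held 73.9% (72.6% to 75.2%) and 67.8% (66.6% to 68.9%) of the counts, and the most upstream group, which includes the 572-codon Tfe3-201, held 25.5% (24.2% to 26.8%) and 30.0% (28.9% to 31.1%). The downstream starts were thus the larger in both libraries, and the second quantification gave them 66.5% and 58.6% of the counts.

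Tfe3 has a coding exon of 105 bases, at chrX:7767893-7767997, which encodes an activation domain and is skipped in a short form of the protein. Transcripts with the exon held 60.7% (59.2% to 62.1%) and 68.3% (67.1% to 69.5%) of the counts of those that span it in the first quantification, and 83.6% and 91.1% of the counts in the second. By TPM the shares were 56.9% and 64.7% in the first and 81.4% and 89.7% in the second. The form with the exon was the larger in both, but its share depended on the quantification by more than it differed between libraries. The exon is printed because it is the coding difference between Tfe3-204 and Tfe3-205.
Tfe3 skipped exon: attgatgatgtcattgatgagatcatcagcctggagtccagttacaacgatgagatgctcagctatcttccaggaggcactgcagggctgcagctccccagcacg

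**Figure D3:**
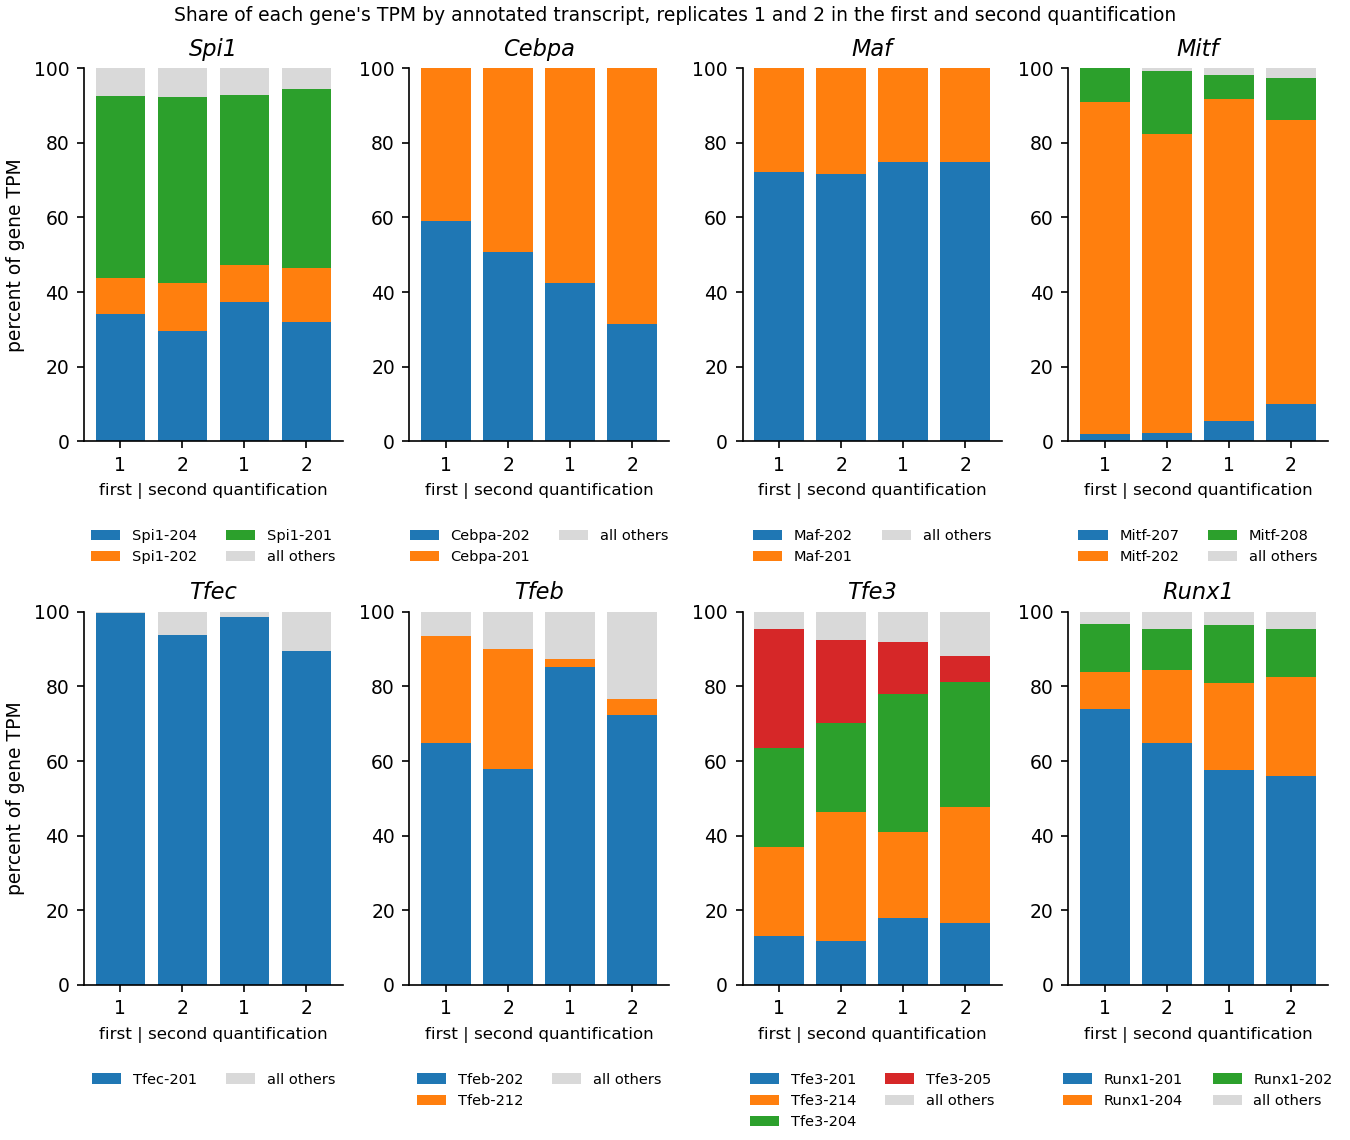
Share of the gene's TPM held by each named annotated transcript, as stacked bars for replicates 1 and 2 in the first and then the second deposited quantification, with all other transcripts in grey. Spi1, Maf, Mitf, Tfec, Tfeb and Runx1 were each led by the same transcript in all 4 bars. The leading transcript of Cebpa and Tfe3 differed between the quantifications, and that of Tfe3 also between the libraries in the first.

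In all, 58 transcripts of the 9 genes are annotated, and 21 held 10% or more of their gene in at least 1 library and quantification. For 7 genes a single transcript held more than 50% of the TPM in both libraries in the first quantification, the exceptions being Spi1 and Tfe3. For Cebpa this was Cebpa-202, with 59.0% and 50.6%, whereas Cebpa-201 led in the second quantification with 57.7% and 68.7%. Short transcripts marked as incomplete took 41.7% and 37.2% of the TPM of Spi1 on 10.8% and 8.69% of its counts, and 9.88% and 19.7% of the TPM of Runx1 on 0.193% and 0.375% of its counts. The share of TPM and the share of counts therefore answer different questions for these genes. The gene level of Spi1 was 142 and 185 TPM over its complete transcripts only, against 244 and 294 TPM over all. That of Tfe3 was 64.2 and 63.5 TPM over complete transcripts, against 84.3 and 97.3 TPM over all. That of Tfeb was 16.7 and 17.8 TPM over complete transcripts, against 24.1 and 27.3 TPM over all.

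**Figure D4:**
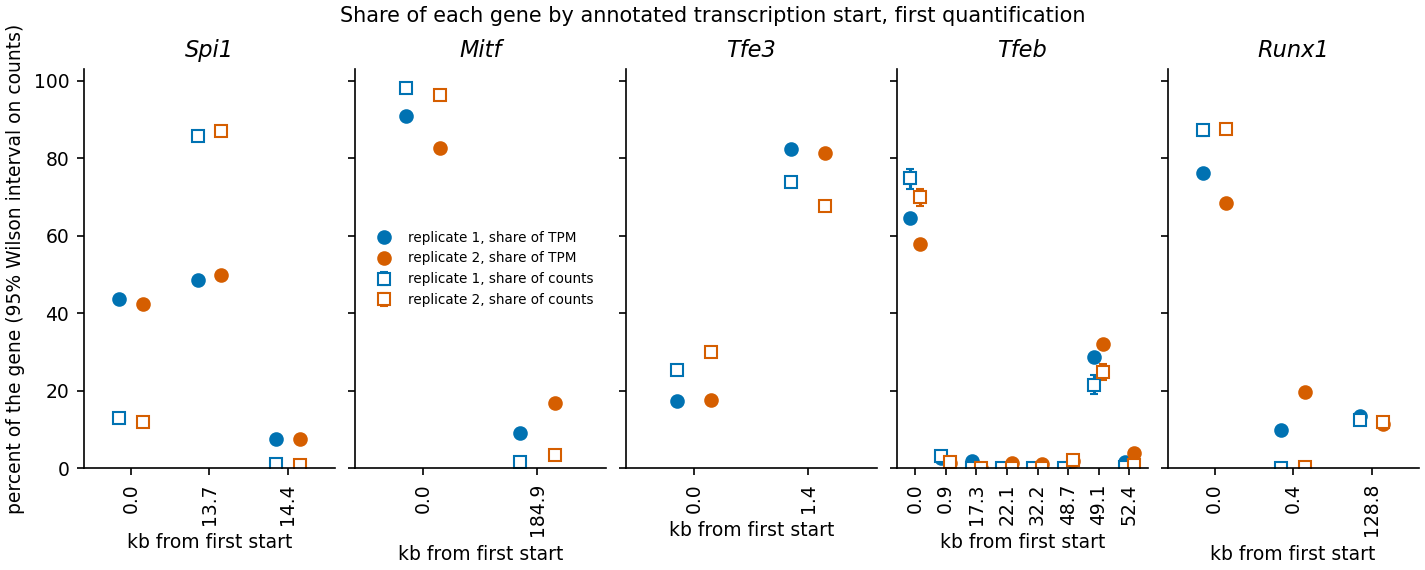
Share of each gene by annotated start in the first quantification, for replicate 1 (blue) and replicate 2 (orange), as share of TPM (filled circles) and share of expected counts (open squares, with 95% Wilson intervals for counting error), by distance from the gene's first start in kb. Starts below 1% of TPM in both libraries are left out. For Spi1 the upstream start held 43.8% and 42.5% of TPM but 13.0% and 11.9% of counts.

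Transcripts with a retained intron were a minor part of the counts of these genes and a larger one in replicate 2. They held 61.4 and 367 expected counts over the 5 genes that have them annotated, 0.585% and 2.03% of their counts. Most came from Tfe3, with 38.0 and 294 counts, or 0.880% and 4.74%. The share was lower in replicate 1 for 4 of the 5 genes and higher for Runx1. Over the 6241 detected genes with such a transcript these held 2.38% and 3.07% of the counts, more than in the factors, and the share was lower in replicate 1 for 68.9% of the genes. The median share over the 5 factors was 0.496% and 0.818%, against 0.367% and 0.933% over the detected genes.

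Genes that the factors are known to control were abundant. All 15 genes of the list of PU.1 and C/EBP targets reached 10 TPM in both libraries, and their median was 246 and 330 TPM. The highest were the lysozyme gene Lyz2, Cd68 and Tyrobp, an adaptor of activating receptors with 3066 and 3419 TPM. The lowest by mean was Csf3r, the receptor gene for granulocyte colony-stimulating factor, with 49.0 and 43.8 TPM, although Csf2ra, with 44.0 and 55.6 TPM, was lower in replicate 1 and by mean in the second quantification. Csf1r, which encodes the receptor for the macrophage growth factor and is a direct target of PU.1, had 764 and 882 TPM.

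Of the 15 MiT/TFE targets, 14 reached 10 TPM in both libraries, and their median was 217 and 187 TPM. The highest were Gpnmb at 15027 and 17046 TPM, the protease gene Ctsd at 16305 and 13750 TPM and Lamp1 at 2879 and 3235 TPM. Ppargc1a, a coactivator of mitochondrial genes, was the lowest with 4 counts in replicate 1 and 1 in replicate 2. Of the 16 genes of the pathway that controls MiT/TFE proteins, 15 were at 1 TPM or more. The 14-3-3 genes Ywhae and Ywhaz had 347 and 321 TPM, and 223 and 199.8 TPM, and the Rag GTPase gene Rragc had 243 and 254 TPM, while Rragb was the lowest at 0.61 and 0.26 TPM.

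Targets of MITF known from other cells were partly present. None of the 7 melanocyte genes reached 1 TPM, and Sox10, Pax3, Tyr and Tyrp1 had 0 counts in both libraries. The highest of them were Mlana with 0.62 and 0.32 TPM and Pmel with 0.13 and 0.18 TPM, and Dct had 0 and 2 counts. Of the 11 osteoclast targets, 6 reached 1 TPM in both libraries, and Oscar, Ocstamp, Dcstamp, Mmp9 and Calcr were not. The proton pump gene Atp6v0d2, the chloride transporter gene Clcn7 and its partner Ostm1 were highest, with 266 and 206 TPM, 134 and 139 TPM, and 49.8 and 61.4 TPM, whereas Calcr, the calcitonin receptor gene of mature osteoclasts, had 0 counts.

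Other regulators gave a frame for these levels. Of 12 other myeloid regulators, 10 reached 1 TPM in both, led by Id2 with 338 and 405 TPM, Irf8 with 178 and 166 TPM and Zeb2 with 97.9 and 143 TPM, and Irf4 was the lowest at 0.61 and 1.46 TPM. Of 15 regulators of other lineages, 13 were below 1 TPM in both libraries. The exceptions were Tal1, a stem cell and erythroid factor, with 3.29 and 5.05 TPM, and Meis1 with 1.27 and 1.77 TPM. The next was Gata2 at 0.01 and 0.24 TPM and the lowest was Ebf1, a B cell factor, with 0 and 1 counts. Each of the 9 factors was above all 15 of these in both libraries.

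With both libraries in the same group, the remaining comparison is between the libraries themselves. On TPM, 8 of the 9 factors, all but Cebpa, were lower in replicate 1, as were most of the detected genes (median log2 ratio -0.10). The log2 ratio of replicate 1 to replicate 2 was 0.80 for Cebpa, and for the others it ran from -0.18 for Tfeb, -0.21 for Tfe3, -0.27 for Spi1 and -0.30 for Maf to -0.58 for Mitf, -0.63 for Tfec, -0.71 for Runx1 and -0.84 for Cebpb. The median over the 9 was -0.30, against -0.10 over all detected genes, for which the 5th and 95th percentiles were -0.96 and 0.55. Cebpa lay above that range, and no factor lay below it. More than 1.5-fold apart were 4 of 9 factors, Cebpa higher and Cebpb, Tfec and Runx1 lower in replicate 1, against 19.5% of the 10658 genes (4.65% higher and 14.9% lower).

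**Figure D5:**
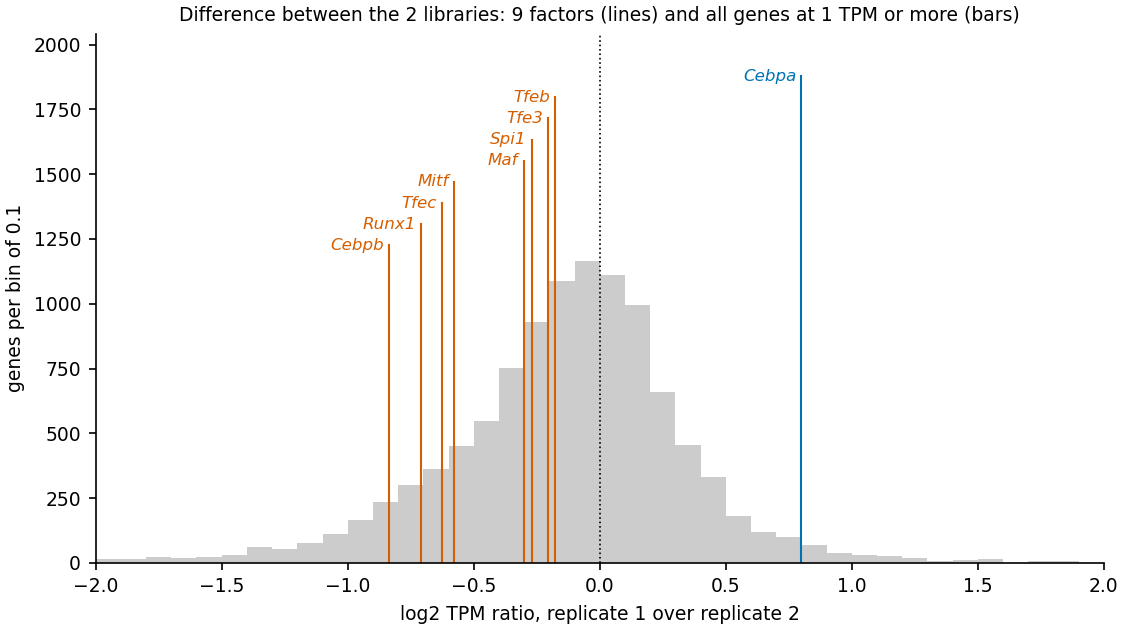
Log2 TPM ratio of replicate 1 over replicate 2 for the 9 factors (lines, blue if higher and orange if lower in replicate 1) over the distribution for all genes at 1 TPM or more in both libraries (grey bars, bins of 0.1, with genes beyond the axis not shown). Cebpa lies at 0.80 and Cebpb at -0.84, on opposite sides of a distribution whose median is -0.10.

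An exact binomial test per gene on TMM-scaled counts, two-sided with Benjamini-Hochberg adjustment, compares these 2 libraries and not conditions. It called 8 of the 9 factors, against 59.3% of the 14110 genes tested, so a call was the usual outcome for a gene. Cebpa was higher in replicate 1 by 0.87 on the log2 scale (adjusted p = 2.85e-199 in the exact test) and Tfe3 by 0.06 (adjusted p = 0.0472), against 29.3% of genes called higher. Spi1, Cebpb, Maf, Mitf, Tfec and Runx1 were lower in replicate 1, by -0.18 to -0.72, against 30% of genes called lower. Tfeb, at -0.02, was not called (adjusted p = 0.838). The direction for Tfe3 was the opposite of its TPM ratio, and with total counts in place of TMM it was lower in replicate 1, at -0.07 (adjusted p = 0.0323, where 59% of genes were called and 40.5% were called lower), so the data give it no stable direction.

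The lists of related genes were divided between directions in the same test, which called 29.3% of all 14110 genes tested higher and 30% lower in replicate 1. Of the 15 PU.1 and C/EBP targets, 8 were called higher and 4 lower in replicate 1, and 3 were not called. Of the 14 MiT/TFE targets tested, 7 were called higher and 3 lower, and 4 were not called. All 5 C/EBP genes tested were called, against 59.3% of all genes tested. Cebpa was higher and Cebpb, Cebpd, Cebpg and Ddit3 were lower in replicate 1. Of the 5 MAF genes tested, Mafg was called higher, Maf and Maff were called lower, and Mafa and Mafk were not called. By TPM, the neutrophil and megakaryocyte markers given above were higher in replicate 1, as Cebpa was, and the part of any such difference in the Cebpa level was not tested.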

How the data were processed

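Polyadenylated RNA of 2 libraries was analysed from the deposited tables. Per the file headers, the authors' gene and transcript tables gave expected counts, TPM and, for transcripts, the percent of each gene (IsoPct). A second set of transcript tables gave the authors' estimated counts and TPM and was summed per gene. Per the deposited text files the assembly was mm10 and the annotation M21. Tools and versions of the quantification: not given in the sources used here. TPM is relative to all entries of a table and was not rescaled. Entries that name no gene (0.0891% and 0.0698% of counts) were left out.

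The 9 genes, the gene lists and the tests were chosen with earlier results of these data known, and the coding events and first-exon groups after values were seen. Genes that reached 1 TPM in each library counted as detected. Expected counts were rounded, and genes with at least 10 counts over both libraries were tested by a two-sided exact binomial test (scipy 1.17.1) against the ratio of TMM library sizes (edgeR 4.0.16, R 4.3.3), adjusted by Benjamini-Hochberg at 0.05. The alternatives were total counts, DESeq2 1.42.0 size factors, other count filters and detection limits, the second quantification, posterior mean TPM, rescaled TPM, a pseudocount of 1, count shares, coding or complete transcripts only, and each library left out. The test was run on simulated Poisson counts, which hold sampling noise but no variation between replicates. That run does not show how the test behaves where such variation is present. Starts within 100 bases were joined. The genes named were all 9, the genes of their families that are reported here, and of other lists the 3 highest, the lowest and those with 0 counts, of cell markers the 2 highest of a type where at 1 TPM or more, and transcripts at 10% or more. Csf1r, Csf2ra, Il10, Oscar, Ocstamp, Dcstamp, Mmp9, Ly6g, Mpo, Elane, Cxcr2, Itga2b, Gp9, Cd3d, the globin genes and Mitf-201 were added after their values were seen. Intervals are 95% Wilson intervals for counting error only, as PCR copies could not be told from molecules. They leave out error in the assignment of reads to transcripts. A few genes of the lists are not reported here.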

Additional observations from a re-analysis of the deposited data

How the results depend on the processing

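The count of 9 factors at 1 TPM or more was the same at limits of 0.5 and 5 TPM, with the second quantification and with either library alone. The binomial test called 7 to 9 factors and 7840 to 10029 genes over its alternatives. With TMM it called 8 of the 9 factors and 8368 of 14110 genes (59.3%). With total counts it called 9 factors and 8326 of 14110 genes (59%). The count filters and the second quantification change which genes are tested, so the gene counts under them are not on that base. Among single factors, Tfeb turned to 0.0756 on the log2 scale (adjusted p = 0.226) with counts of the second quantification, and was called with total counts at -0.15 (adjusted p = 0.0176, with 0.0176 to 0.933 over its alternatives). Tfe3 turned to -0.0675 (adjusted p = 0.0323) with total counts, and lost its call with DESeq2 size factors (adjusted p = 0.0632) and with no filter on low counts (adjusted p = 0.0644), with 5.32e-10 in the second quantification. Its log2 TPM ratio over complete transcripts only was 0.0174. These causes were not tested. Of the recomputed values, 170 kept their direction and call or stayed close to the value given, 31 moved, 3 reversed, 1 gained and 2 lost a call. A mean level or start share counted as close within the SD of the 2 libraries, which leaving out either library cannot exceed. Those checks were therefore bound to stay close. The mean level of Spi1 was 163 TPM over complete transcripts, 231 TPM in the second quantification and 340.0 TPM when rescaled over coding genes. Complete transcripts and grouping by overlapping first exons were added after the data were seen. No paired analysis was possible because both libraries belong to a single group. With 2 libraries and no other group, no test between conditions and no leave-one-out of a difference could be made, and depth limits a count of 0 to 0.0794 and 0.0578 CPM.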
